A study of Sus scrofa with 18 samples.

Results

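The H3K4me3 peak list of the longitudinal muscle (LM) of pregnant gilts was compared with that of the circular muscle (CM) of cyclic gilts. Both came from the myometrium on the mesometrial side of the uterus of Yorkshire pigs. GD15M_LM was LM on day 15 of pregnancy, after natural mating, and CD15M_CM was CM from cyclic gilts at day 15 of the cycle. The third H3K4me3 list, GD15M_CM (CM on day 15 of pregnancy), served as the point of reference for how alike the other lists were. The comparison was chosen by these group labels and holds 68241 peaks, 31910 of GD15M_LM and 36331 of CD15M_CM, out of 320764 peaks in the series, which also covers H3K27ac. Behind it stand 4 H3K4me3 libraries of 18 libraries in all, from 2 gilts per group, and each group had its own IgG control. The signal was measured by CUT&Tag, in which a transposase tethered by the antibody cuts and tags the DNA next to the mark. Because the reads of both gilts were pooled before peaks were called, there is 1 list per group, and the differences given here have no error over animals and no test. Layer and reproductive status differ together in this pair and cannot be told apart. The lists hold no read counts, so the depth behind a single peak is not given here.

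H3K4me3 is a histone mark laid down at the promoters of genes that are active or ready for transcription, where it forms a peak over the start of the gene. Genes that define the identity of a cell often carry an unusually wide domain of the mark. The myometrium has an inner CM layer, next to the endometrium with its glands and immune cells, and an outer LM layer under the serosa, and the smooth muscle cells of both build the contractile force that moves and spaces the embryos.

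The peaks of GD15M_LM covered 52.2 Mb with a median length of 1007 bp and a median fold enrichment over IgG of 5.66, and those of CD15M_CM covered 55.2 Mb with medians of 800 bp and 4.64. GD15M_CM had 33599 peaks over 47.7 Mb, with medians of 760 bp and 4.86. Chromosome Y held 8, 12 and 13 peaks in GD15M_LM, CD15M_CM and GD15M_CM, although gilts are female.

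Most of the mark was common to both tissues. Of the GD15M_LM peaks, 79.3% overlapped a CD15M_CM peak by at least 1 bp (95% Wilson interval 78.8% to 79.7%, which covers counting error only), and 70.3% of the CD15M_CM peaks overlapped a GD15M_LM peak (69.8% to 70.7%). Measured by bases, 44.9 Mb were covered in both lists out of 62.5 Mb covered in either, which was 86.1% of the GD15M_LM length and 81.3% of the CD15M_CM length. With equal numbers of peaks in both lists the shares of peaks with a partner were 75.9% and 75.3%.

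The peaks held by one list alone were short and weak. The 6621 peaks of GD15M_LM without a CD15M_CM partner had a median fold enrichment of 3.64 and a median length of 331 bp, against 9.30 and 1551 bp for the shared ones. The 10803 unmatched peaks of CD15M_CM had medians of 3.37 and 329 bp, against 9.05 and 1565 bp. Together the unmatched peaks made up 5.10% of the covered length of GD15M_LM and 8.20% of that of CD15M_CM. Few of them ranked above the median fold enrichment of their own list, 311 (4.70%) in GD15M_LM and 1103 (10.2%) in CD15M_CM.

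Shared peaks lay mostly at genes, and unmatched peaks less so. Genes were the RefSeq models of the Sscrofa11.1 build, and because the gene table gave no strand, peaks were assigned to every gene model of which one end was no more than 3 kb away. By this rule 72.4% of the shared GD15M_LM peaks and 71.6% of the shared CD15M_CM peaks were at a gene end. The share was 41.3% (40.1% to 42.5%) for peaks of GD15M_LM alone, of which 45.1% lay inside a gene body, and 50.2% (49.2% to 51.1%) for peaks of CD15M_CM alone. Leaving out chromosome Y, the unmatched share of CD15M_CM peaks ran from 12.1% on chromosome X to 38.8% on chromosome 12, and that of GD15M_LM peaks from 15.9% on X to 25.7% on chromosome 10.

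By covered bases and by gene ranks, GD15M_LM and GD15M_CM, the 2 layers of pregnant gilts, were the least alike. Shares of peaks, which move with the lengths of the lists, gave no single order. Of the GD15M_LM peaks 70.9% overlapped a GD15M_CM peak and 75.1% the other way round, while 67.4% of the CD15M_CM peaks overlapped a GD15M_CM peak and 82.0% the other way round. Whether GD15M_LM and CD15M_CM were closer to each other than CD15M_CM was to GD15M_CM depended on the measure. By covered bases, the part of the length shared was 71.9% for GD15M_LM and CD15M_CM, 71.3% for CD15M_CM and GD15M_CM and 69.0% for GD15M_LM and GD15M_CM. This order was kept with strict peaks, with joined peaks and with equal numbers of peaks, although the first pair led the second by less than 1 point each time.

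By gene ranks the first pair had no lead. Each peak was given its percentile by fold enrichment within its own list, each gene took the highest percentile among its peaks, and a gene with no peak was given 0. Across the 17161 genes with a peak in any of the 3 lists, Spearman's rho was 0.736 for GD15M_LM and CD15M_CM, 0.736 for CD15M_CM and GD15M_CM and 0.703 for GD15M_LM and GD15M_CM. In the 15642 genes with a peak in all 3 lists the values were 0.663, 0.664 and 0.624. These are descriptions across genes, which are not independent, since neighbouring genes can share a peak and the 3 lists share the assay and its local biases. Which of the first 2 pairs came first changed between settings.

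**Figure D1:**
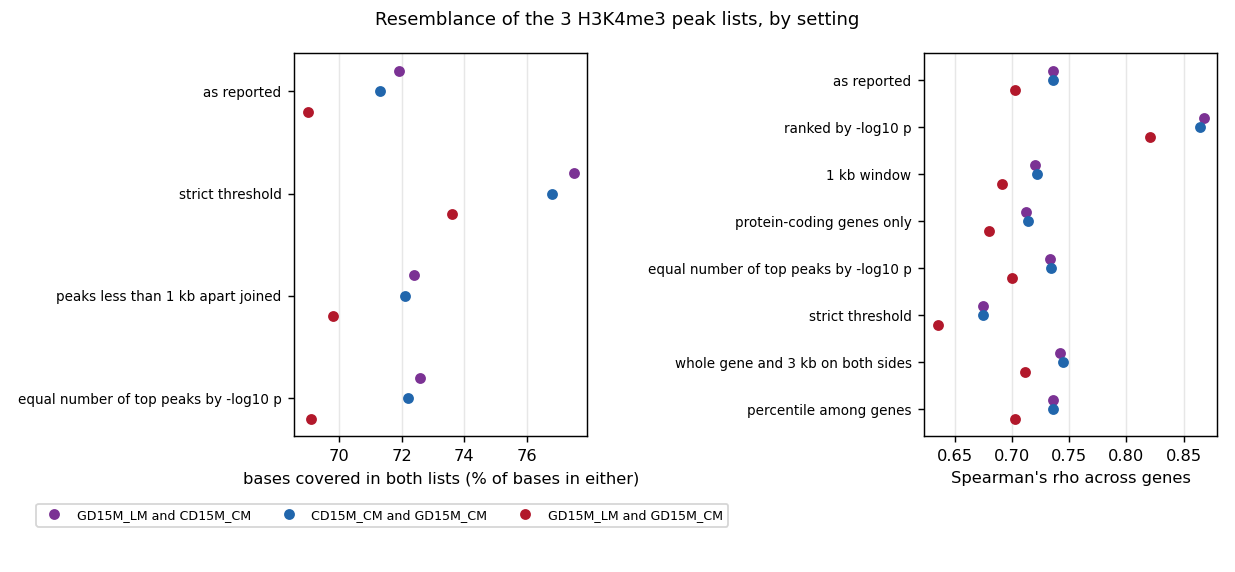
Resemblance of the 3 H3K4me3 lists under each processing setting, as the bases covered in both lists in percent of the bases covered in either (left) and as Spearman's rho of the gene percentiles (right); each point is 1 pair of lists and there are no replicates. The pair GD15M_LM and GD15M_CM lies lowest in every row (69.0% and 0.703 as reported), while the pairs GD15M_LM and CD15M_CM (71.9%, 0.736) and CD15M_CM and GD15M_CM (71.3%, 0.736) lie close together.

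Regions missing from a single list were counted next. When the 3 lists were laid over each other they formed 43390 regions, of which 19144 (44.1%) were in all 3. GD15M_LM and CD15M_CM shared 3203 regions that GD15M_CM lacked (7.38%, interval 7.14% to 7.63%). CD15M_CM and GD15M_CM shared 2792 that GD15M_LM lacked (6.43%, 6.21% to 6.67%), and GD15M_LM and GD15M_CM shared 1085 that CD15M_CM lacked (2.50%, 2.36% to 2.65%). With strict peaks only (fold enrichment of at least 5 and −log10 p of at least 10) these counts were 1086, 537 and 319 of 18432 regions, in the same order.

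At single genes the list that stood apart most often was GD15M_LM. A gene was counted when 1 list lay at least 20 percentile points from both others and those others lay within 5 points of each other. GD15M_LM stood apart at 620 genes (249 higher, 371 lower), GD15M_CM at 488 (154 higher, 334 lower) and CD15M_CM at 395 (307 higher, 88 lower). CD15M_CM was thus the list least often apart at single genes, although it held the most regions of its own, 7454 against 5272 in GD15M_LM and 4440 in GD15M_CM.

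Between GD15M_LM and CD15M_CM, 17033 genes had a peak in either list, 16048 of them in both, 374 in GD15M_LM only and 611 in CD15M_CM only. A difference of 20 percentile points or more was taken as a change of rank. It was reached by 688 genes in favour of GD15M_LM (4.04% of the genes compared) and by 1595 in favour of CD15M_CM (9.36%), and these percentages are the background for the gene groups below. For comparison, the shares in favour of each list were 8.50% (GD15M_LM) and 7.83% (GD15M_CM) between the layers of pregnant gilts, and 9.17% (CD15M_CM) and 3.50% (GD15M_CM) between cyclic and pregnant CM.

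The excess in favour of CD15M_CM depended on the setting, and its cause was not tested. A percentile within a list depends on how many weaker peaks the list holds, and CD15M_CM had more peaks than GD15M_LM. The median gene stood 2.44 points lower in GD15M_LM. Of all genes compared, 60.3% ranked higher in CD15M_CM, which is the background for the counts of higher genes below. CD15M_CM held 69.9% of the changed genes as reported, 54.4% when both lists were reduced to their 31910 peaks of highest −log10 p (1048 against 1252 genes), 50.6% with strict peaks and 51.8% when percentiles were taken among genes. Genes are therefore described by group, against the median of all genes.

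**Figure D2:**
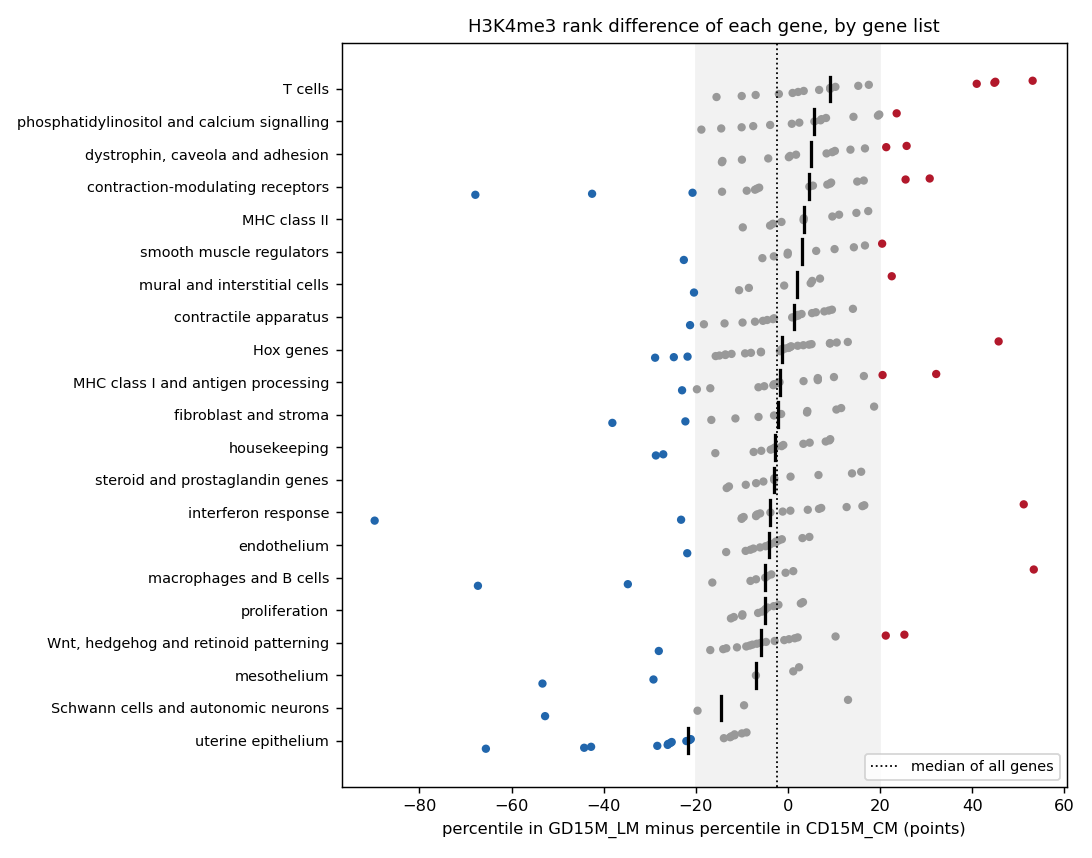
Difference in H3K4me3 percentile, GD15M_LM minus CD15M_CM, for each gene with a peak in either list, by gene group; each point is 1 gene, red and blue points differ by 20 points or more, the black bar is the group median and the dotted line the median of all genes (−2.44). The uterine epithelium group lies wholly on the CD15M_CM side with a median of −21.7, and the T cell group has the highest median, 9.15.

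Genes of the uterine epithelium showed the largest and most uniform difference. All 18 markers with a peak ranked lower in GD15M_LM, and 11 of them fell by 20 points or more, against a background of 9.36%. Their median percentile was 56.8 in GD15M_LM, 74.3 in CD15M_CM and 77.6 in GD15M_CM. By these medians the 2 circular lists were close to each other and the longitudinal list stood below both. Gene by gene, CD15M_CM ranked above GD15M_CM at 4 of the 18, against 10008 of the 17033 genes compared. GD15M_LM stood apart by the rule given above at 4 of the 18 (MUC1, KRT7, KRT8 and KRT19), against 620 of 17161 genes. Under the alternative settings, which left 15 to 18 of the markers with a peak, none ranked higher in GD15M_LM and between 7 and 11 passed 20 points. Of all genes, 2459 of 15814 passed towards CD15M_CM with strict peaks and 2741 of 17033 with percentiles among genes.

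KRT19 (chr12:21115453-21119115), a keratin of simple epithelia, had a percentile of 12.9 in GD15M_LM, 78.5 in CD15M_CM and 79.4 in GD15M_CM. Its peak had a fold enrichment of 3.20 over 1470 bp in GD15M_LM and of 17.6 over 4135 bp in CD15M_CM. The longitudinal value was the low one, and the circular lists lay side by side.

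OVOL2 (chr17:26417793-26451707), a repressor that maintains the epithelial state, stood at 30.2 in GD15M_LM, 72.9 in CD15M_CM and 81.4 in GD15M_CM. EHF, an epithelial ETS factor, had no peak at its gene ends in GD15M_LM (24.4 over the whole gene) and percentiles of 44.2 and 51.8 in the circular lists. KRT18 and KRT8, which pair to form the intermediate filaments of glandular and luminal cells, were at 59.1 and 59.0 in GD15M_LM against 87.4 and 84.5 in CD15M_CM.

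CDH1, the adhesion molecule E-cadherin, was at 54.3 in GD15M_LM, 75.7 in CD15M_CM and 81.6 in GD15M_CM. EPCAM, another epithelial adhesion molecule, was at 59.3, 71.9 and 75.8, and FOXA2, a factor of the uterine glands, at 60.3, 71.9 and 95.6, and neither reached 20 points between GD15M_LM and CD15M_CM. The highest-ranked peak was longer in CD15M_CM at all 18 genes, with a median of 3399 bp against 1474 bp. H3K27ac, the mark of active promoters and enhancers measured in the same groups, had a median percentile at these genes of 21.3 in GD15M_LM, 69.6 in CD15M_CM and 76.2 in GD15M_CM, but it was not uniform, being higher in GD15M_LM at 7 of the genes and in CD15M_CM at 10. In bulk tissue, fewer cells of a type and less of the mark per cell cannot be told apart.

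**Figure D3:**
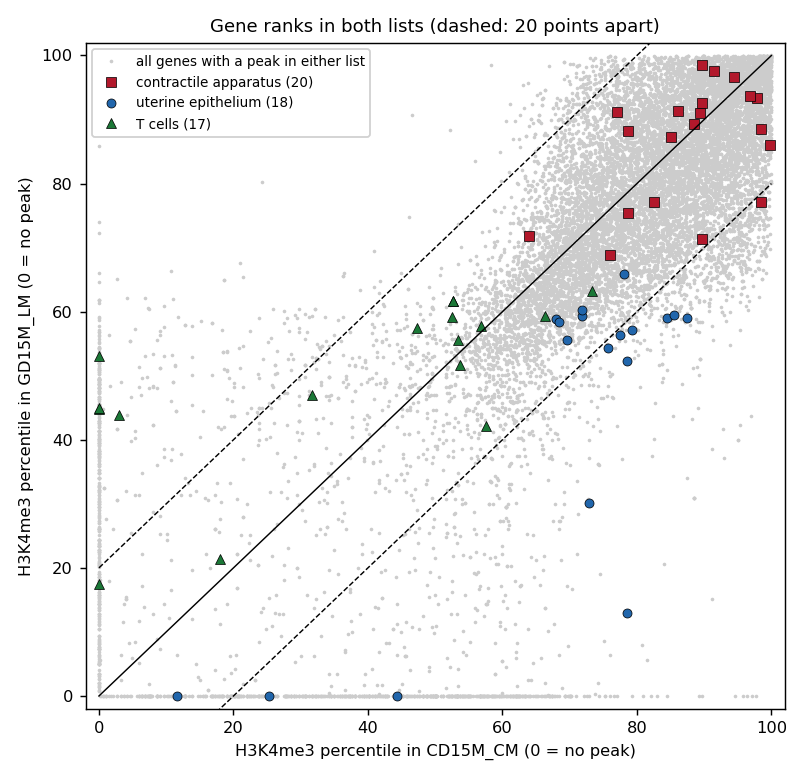
H3K4me3 percentile of every gene in GD15M_LM (y axis) against CD15M_CM (x axis), with a gene without a peak at 0; grey points are all 17033 genes and the dashed lines mark 20 points of difference. The 18 epithelial genes (circles) lie below the diagonal, the 20 contractile genes (squares) lie on both sides of it in the upper right, and 4 T cell genes (triangles) lie above the upper dashed line.

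Of the 10 protein-coding genes with peaks in both lists and the largest difference towards CD15M_CM, SPDEF (chr7:30515925-30538095) came first, with percentiles of 15.1 in GD15M_LM, 91.1 in CD15M_CM and 68.2 in GD15M_CM. SPDEF is an ETS factor of secretory epithelial cells. GMNC, a regulator of multiciliated cells, was at 2.07 and 74.2 in the pair, and FERMT1, the epithelial kindlin, at 0.0862 and 66.8. GREB1, an early target of the estrogen receptor, was at 8.61, 75.1 and 80.0 in GD15M_LM, CD15M_CM and GD15M_CM. KRT19 was also among the 10, with ADAMTS18, LKAAEAR1, RIIAD1, GALNTL6 and 1 uncharacterised gene.

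Genes with a peak in CD15M_CM only were looked at next. The 10 protein-coding genes of highest percentile in this class included SLC23A3, EHBP1, OAS1, BRS3, MEFV, B3GALT5, RFX6 and 1 gene on Y, and at all 8 the CD15M_CM peak overlapped a GD15M_LM peak that ended outside the 3 kb. Over the whole class this held for 26 of 611 genes, and for 12 of 374 in GD15M_LM. The other genes of the 10 had no GD15M_LM peak at that place. CCL28, a chemokine of mucosal epithelia, had a percentile of 79.2 in CD15M_CM and 67.5 in GD15M_CM, and ST8SIA6, a sialyltransferase, 83.0 and 15.1. Over the whole gene model CCL28 did have a GD15M_LM peak, with percentiles of 78.3 in GD15M_LM and 93.3 in CD15M_CM.

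The contractile apparatus was marked in both tissues, and the lists differed in the width of its peaks rather than in their rank. Of 20 genes with a peak, 11 ranked higher in GD15M_LM and 9 in CD15M_CM, and 1 reached 20 points. Their median percentiles were 88.9 in GD15M_LM and 89.5 in CD15M_CM, against 75.2 in GD15M_CM. At 19 of the 20 genes, however, the highest-ranked peak was longer in GD15M_LM, with a median of 11105 bp against 6942 bp in CD15M_CM and 5960 bp in GD15M_CM. Over all genes the peak was longer in GD15M_LM at 43.9%.

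MYH11 (chr3:7002667-7143093), the smooth muscle myosin heavy chain, had percentiles of 96.7 in GD15M_LM, 94.5 in CD15M_CM and 79.1 in GD15M_CM. Its peak was 11893 bp long in GD15M_LM and 6789 bp and 6773 bp in the circular lists. By rank the 2 lists of the pair were close, and by length the longitudinal list stood apart from both.

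MYL9, the regulatory light chain whose phosphorylation starts contraction, was at 92.6, 89.7 and 74.6 in GD15M_LM, CD15M_CM and GD15M_CM, with peaks of 9888, 5148 and 4438 bp. DES, the intermediate filament desmin, was at 89.3, 88.4 and 71.0, with peaks of 12909, 7644 and 5603 bp. TAGLN, the actin-binding protein transgelin, was at 91.3, 86.1 and 73.3, with peaks of 14880, 11232 and 7223 bp. In these 3 genes the order of peak lengths was the same, with CD15M_CM in the middle.

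SYNM (chr1:137855644-137883914), which links desmin to adhesion sites, was the contractile gene with the widest gap from GD15M_CM. Its percentiles were 98.6 in GD15M_LM, 89.7 in CD15M_CM and 60.1 in GD15M_CM, with fold enrichments of 37.3, 24.6 and 6.78 and peak lengths of 6542, 3596 and 3277 bp. SMTN, the smooth muscle protein smoothelin, had the largest lead in GD15M_LM, at 91.1 against 77.0, with peaks of nearly equal length (16009 and 15822 bp).

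TPM1, a tropomyosin, went the other way by rank, and was the gene that passed 20 points. It was at 77.2 in GD15M_LM, 98.5 in CD15M_CM and 97.0 in GD15M_CM, yet its peak was longer in GD15M_LM (12271 bp against 10411 bp). By rank of −log10 p its difference was 15.1 points in the same direction. PPP1R12A, the targeting subunit of myosin phosphatase, was the 1 contractile gene with a longer peak in CD15M_CM, 4230 bp against 3911 bp.

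The count of longer peaks held under other ways of drawing them. With peaks less than 1 kb apart joined, with strict peaks and with equal numbers of peaks, the peak was again longer in GD15M_LM at 19 of 20 contractile genes. Counted as bases covered over the whole gene model and 3 kb on both sides, GD15M_LM had more at 19 of 21 genes, with medians of 12948 bp and 10629 bp, against 40.8% of all genes. The lengths were looked at after the ranks had been seen.

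**Figure D4:**
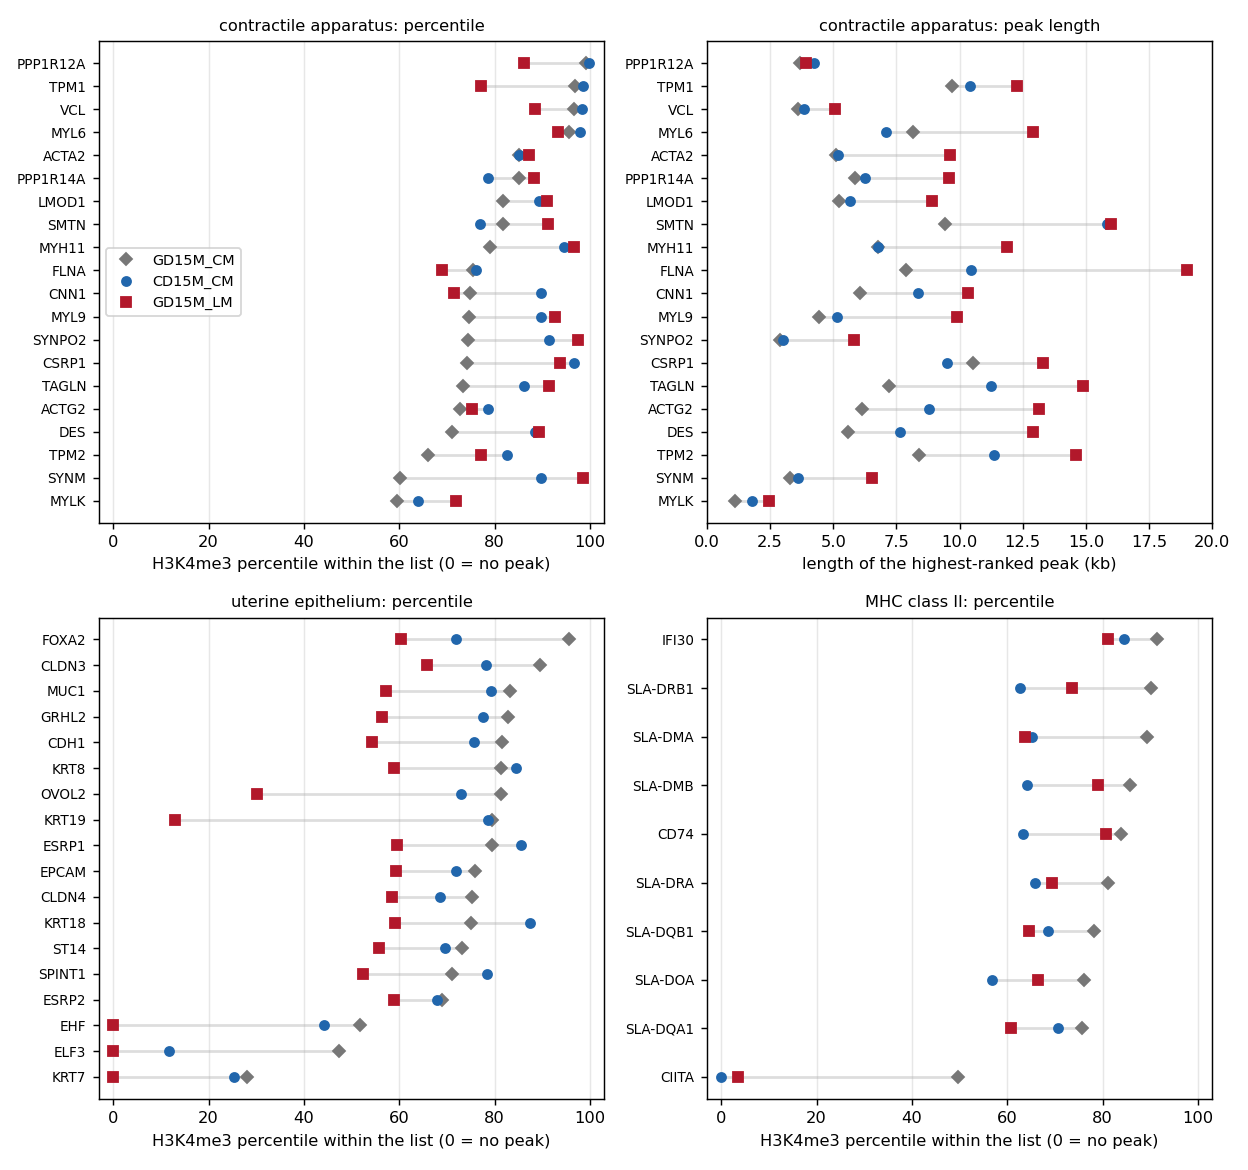
H3K4me3 in the 3 lists at contractile genes (percentile, top left; length in kb of the highest-ranked peak, top right), uterine epithelial genes and MHC class II genes (percentiles, bottom); each row is 1 gene, each point 1 pooled list, and the bar spans the 3 values. Contractile peaks are longest in GD15M_LM at 19 of 20 genes, epithelial percentiles are lowest in GD15M_LM at all 18, and MHC class II percentiles are highest in GD15M_CM at all 10.

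At contractile genes GD15M_LM and CD15M_CM often ranked above GD15M_CM, as they did in several other groups. Both ranked above GD15M_CM at 11 of 20 genes (17 when peaks were ranked by −log10 p) and both below at none, against 35.8% and 29.6% of all genes. Both were above at 63.2% of the Wnt, hedgehog and retinoid genes, 58.8% of the receptor genes and 58.3% of the fibroblast genes. GD15M_CM stood apart by the rule given above at 0 of the 20 contractile genes. In 3 settings (equal numbers, strict peaks and percentiles among genes) 1 gene lay below GD15M_CM in both. The 2 peaks of the pair were both longer than that of GD15M_CM at 18 of 20, against 52.6% of all genes. CALD1 (caldesmon) had no peak near its gene ends in any list, and over the whole gene it was at 86.6, 82.0 and 84.9 in GD15M_LM, CD15M_CM and GD15M_CM.

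The regulators of the smooth muscle programme were mixed, with 5 of 10 higher in each list. MYOCD, the coactivator that drives smooth muscle genes, rose to 88.6 in GD15M_LM from 68.2 in CD15M_CM and was at 80.9 in GD15M_CM. Its partner SRF was at 98.8 and 98.9 in the pair, and TEAD1 at 99.7 and 99.8, so these ranks hardly differed. NFATC1, a calcium-responsive factor, fell to 68.7 in GD15M_LM from 91.3 in CD15M_CM.

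Genes of phosphatidylinositol and calcium signalling tended to rank higher in GD15M_LM, at 10 of 15 genes with a median difference of 5.72 points, although 1 gene passed 20 points. CACNA1C (chr5:69016954-69448428), the pore of the L-type calcium channel, was at 95.1 in GD15M_LM, 71.5 in CD15M_CM and 75.5 in GD15M_CM. ADRA2A (chr14:121469572-121470924), the alpha-2A adrenoceptor, was at 96.7, 77.2 and 69.7, a difference of 19.5 points, just under the limit. Its peak was 5637 bp long in GD15M_LM, 5105 bp in CD15M_CM and 3703 bp in GD15M_CM.

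CAMK2D, a calmodulin-dependent kinase, was at 87.7 and 67.9 in the pair, also just under the limit. Other members lay on the other side. ATP2A2, the calcium pump of the store, was at 78.8 in GD15M_LM and 97.6 in CD15M_CM, and ITPR1, the release channel of the store, at 82.6 and 97.1, neither passing 20 points. Ranked by −log10 p, the group's median difference was 0.20 points and no gene passed 20 points.

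Receptors that modulate contraction differed one by one. Of 24 receptor genes, 17 had a peak in the pair, 9 ranked higher in GD15M_LM and 8 in CD15M_CM, and the median difference of 4.63 points turned to −2.31 when peaks were ranked by −log10 p. HTR2A, a serotonin receptor coupled to phospholipase C, rose to 87.0 in GD15M_LM from 61.5 in CD15M_CM and was at 56.0 in GD15M_CM. ADRA1A, an adrenoceptor that raises calcium, rose to 58.2 from 27.5. Over the whole gene ADRA1A was at 46.7 in GD15M_CM. The bases covered there went the other way in the pair, with 1392 bp in GD15M_LM, 1873 bp in CD15M_CM and 1405 bp in GD15M_CM. OXTR, the oxytocin receptor, was at 65.8, 50.7 and 40.1 in GD15M_LM, CD15M_CM and GD15M_CM, with peaks of 3793, 461 and 243 bp.

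In the other direction, ADRB1, an adrenoceptor that raises cAMP, fell to 21.7 in GD15M_LM from 64.2 in CD15M_CM, and was at 65.2 in GD15M_CM. EDNRB, an endothelin receptor, fell to 64.6 from 85.4. NMUR2, a receptor for neuromedins, had a peak of 3577 bp in CD15M_CM alone, at a percentile of 67.9.

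Adhesion, caveola and dystrophin complex genes ranked higher in GD15M_LM at 10 of 14, with a median difference of 5.05 points. ITGA5 (chr5:19587361-19610580), the fibronectin receptor subunit, was at 96.6 in GD15M_LM, 70.9 in CD15M_CM and 72.3 in GD15M_CM. ITGA8, an integrin of smooth muscle, was at 98.3, 77.0 and 69.0. CAVIN1, which shapes caveolae, was at 79.9 and 94.2 in the pair, the largest difference towards CD15M_CM, and did not reach 20 points. At all 14 genes both peaks of the pair were longer than that of GD15M_CM. DMD (dystrophin) had no peak near its gene ends, and over the whole gene was at 90.9, 83.5 and 89.4.

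**Figure D5:**
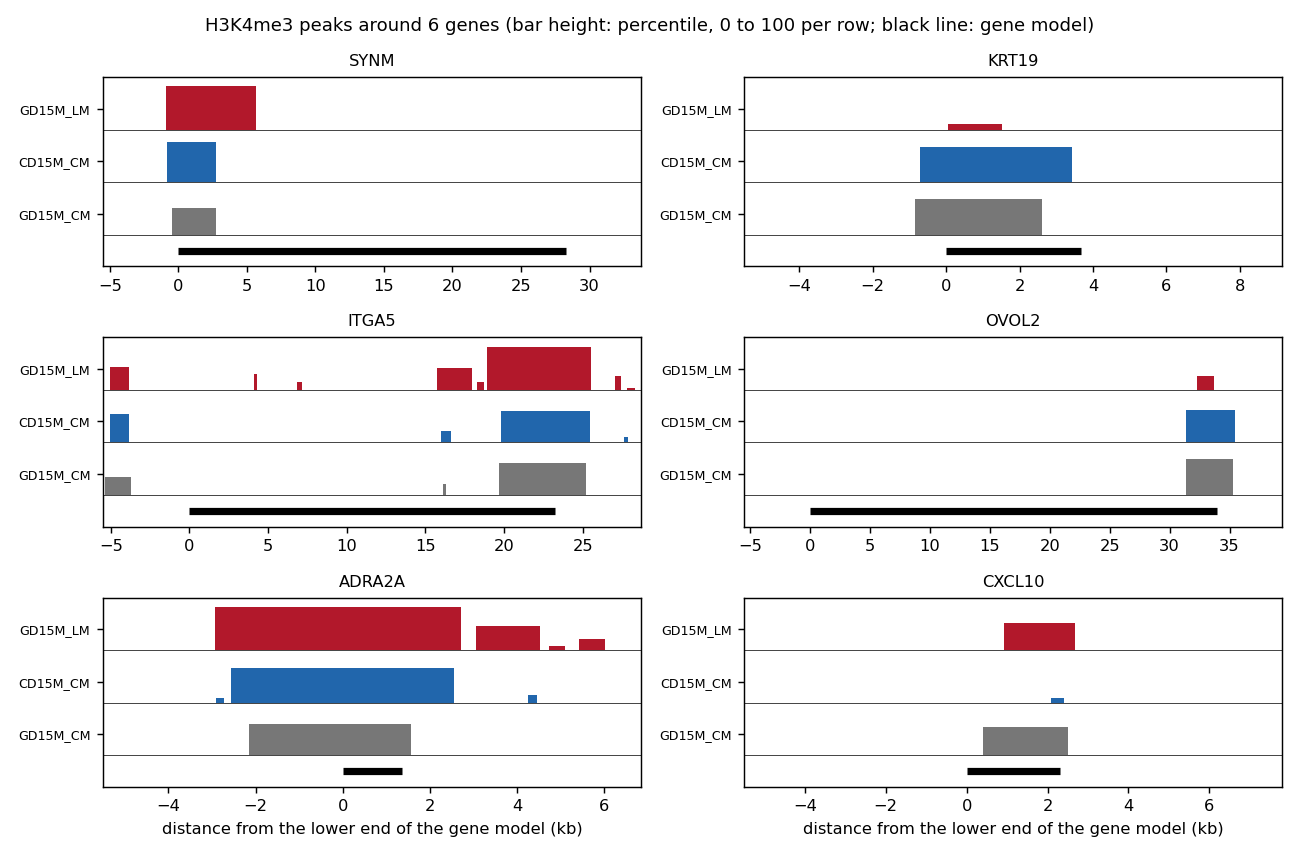
H3K4me3 peaks at SYNM, ITGA5, ADRA2A, KRT19, OVOL2 and CXCL10, as distance in kb from the lower-coordinate end of the gene model (black line); each bar is 1 peak, its width the peak's extent and its height the percentile from 0 to 100 within its list. SYNM, ITGA5 and ADRA2A carry their highest and widest peak in GD15M_LM, KRT19 and OVOL2 have short low peaks there, and CXCL10 has its short low peak in CD15M_CM.

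The MHC class II genes, which present peptides to helper T cells, ranked highest in GD15M_CM at all 10 genes with a peak in the pair, against 29.6% of all genes. Their median percentile was 67.9 in GD15M_LM, 64.7 in CD15M_CM and 82.5 in GD15M_CM. Between GD15M_LM and CD15M_CM 6 ranked higher in the first and 4 in the second, and none passed 20 points. With strict peaks 7 of 9 were higher in GD15M_LM and 4 passed 20 points, and with percentiles among genes 8 of 10 were higher and 3 passed. Of all genes, 7962 of 15814 were higher in GD15M_LM and 2405 passed with strict peaks. With percentiles among genes these were 8319 and 2548 of 17033. The highest-ranked peak was longer in GD15M_LM at 9 of 10 genes, and the bases covered over the whole gene were more at 11 of 11. The median H3K27ac percentile was 60.6 in GD15M_LM, 9.13 in CD15M_CM and 88.8 in GD15M_CM. CD74, the invariant chain, was at 80.8, 63.4 and 83.9, so here GD15M_LM was near GD15M_CM. SLA-DMA was at 63.8, 65.2 and 89.4, and CIITA, the master regulator of the class, at 3.42, 0 and 49.7 by gene ends and at 55.5, 57.8 and 81.4 over the whole gene.

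Interferon response genes had no common direction in the pair. Of 19 genes 8 ranked higher in GD15M_LM and 11 in CD15M_CM, with a median difference of −3.83 points that was above 0 with equal numbers of peaks, strict peaks or percentiles among genes. The median percentile was 67.2 in GD15M_LM, 72.8 in CD15M_CM and 86.2 in GD15M_CM, and 11 genes lay below GD15M_CM in both lists.

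Members of the group differed in which list was the lowest. CXCL10 (chr8:71693641-71695948), a chemokine for activated T cells, rose to 60.9 in GD15M_LM from 9.69 in CD15M_CM, and was at 62.6 in GD15M_CM. GBP1, an interferon-induced GTPase, was at 90.6, 77.9 and 96.8. At both genes the pregnant lists lay above the cyclic one.

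IFIT3, an antiviral effector, fell to 51.3 in GD15M_LM from 74.5 in CD15M_CM, and was at 80.5 in GD15M_CM. IFIT2 was at 64.4, 74.4 and 91.5, and ISG15, a ubiquitin-like modifier, at 68.5, 75.2 and 87.2. For the last 3 genes GD15M_LM was the lowest list. OAS1 had no peak in GD15M_LM within the window and 89.7 in CD15M_CM, and its CD15M_CM peak overlapped a GD15M_LM peak outside the window.

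MHC class I and antigen processing genes were divided, with 8 of 17 higher in GD15M_LM and 9 in CD15M_CM, and a median difference of −1.84 points that was above 0 with equal numbers of peaks, strict peaks or percentiles among genes. ERAP1, which trims peptides for class I, was at 98.5 in GD15M_LM and 78.0 in CD15M_CM. SLA-1 was at 74.3 and 97.3, and the neighbouring SLA-2 at 99.7 and 89.7. Over the whole gene SLA-1 was at 88.8 and 97.3, with 17219 bp covered in GD15M_LM and 16726 bp in CD15M_CM. The classical genes are near copies of each other, so reads at one can come from another, and these values are uncertain. TAP1, TAP2 and PSMB8 were assigned the same peak in each list of the pair.

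T cell genes ranked higher in GD15M_LM at 13 of 17, with a median difference of 9.15 points. Their median H3K27ac percentile was 0 in all 3 lists, with 2 genes higher in GD15M_LM and 2 in CD15M_CM. CD8B and GZMA (1 of its 2 gene models), both of cytotoxic cells, had peaks in GD15M_LM (percentiles of 45.0 and 53.1) and none in CD15M_CM, and CD6 was at 43.9 and 2.92. CD8A was at 44.8 and 0 by gene ends, yet over the whole gene it had 51.1 and 51.7. Over whole genes the median difference was 3.41 points with 11 of 17 higher in GD15M_LM, while the bases covered were more in GD15M_LM at 17 of 17. CD3E, a subunit of the T cell receptor complex, was at 57.5, 47.2 and 51.7 in GD15M_LM, CD15M_CM and GD15M_CM, and LCK, the kinase that starts its signal, at 63.2, 73.2 and 90.9. At 12 of the 17 genes both lists lay below GD15M_CM, and with percentiles among genes none passed 20 points between the pair.

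Markers of other cells that the layers can hold followed. Endothelial genes ranked higher in CD15M_CM at 13 of 15 with a median difference of −4.16 points, which turned to 0.37 with equal numbers of peaks, 0.15 with percentiles among genes and 1.21 with strict peaks. SOX17, an endothelial and glandular factor, was at 64.6 in GD15M_LM, 86.5 in CD15M_CM and 94.1 in GD15M_CM and was the 1 gene past 20 points. Fibroblast genes were higher in GD15M_LM at 5 of 12, and FGF7 and POSTN fell, with CD15M_CM peaks of 313 and 345 bp. Over the whole gene POSTN was at 33.3 in GD15M_LM and 55.6 in CD15M_CM. The bases covered there went the other way, 596 bp against 345 bp. The median difference of this group, −2.27 points, was above 0 with equal numbers of peaks, strict peaks or percentiles among genes. COL3A1, a fibrillar collagen, was at 94.5, 84.0 and 76.8.

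Of 8 mural and interstitial genes 4 were higher in each list. KCNJ8, a potassium channel subunit of pericytes, was at 92.3 and 69.8 in the pair, and RGS5, another pericyte gene, at 50.3 and 70.7. Macrophage and B cell genes were higher in CD15M_CM at 9 of 11, against 60.3% of all genes, and at 7 of 11 over whole genes. By gene ends PAX5 had a peak in GD15M_LM alone, which overlapped a CD15M_CM peak beyond the window, while MS4A1, CD79B and LYZ had none. Mesothelial genes had peaks at 5 of 10. WT1 was at 99.2 and 96.8 in the pair, LRRN4 had none in GD15M_LM and 53.3 in CD15M_CM, and BNC1 was at 56.1 and 85.3. Of 9 Schwann cell and neuronal genes 4 had a peak, 1 higher in GD15M_LM and 3 in CD15M_CM. The part of cell composition in the differences of other groups was not tested.

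Genes of position and patterning were similar in rank and differed at a few places. Of 31 Hox genes with a peak, 13 ranked higher in GD15M_LM and 18 (58.1%) in CD15M_CM, near the 60.3% of all genes. In these directions 1 (3.23%) and 3 (9.68%) passed 20 points, near the 4.04% and 9.36% of all genes. The longest peak of GD15M_LM, 44510 bp, ran along the HOXA cluster and was the highest-ranked peak of HOXA3, HOXA6, HOXA7, HOXA9, HOXA10, HOXA11 and HOXA13, at a percentile of 97.7. CD15M_CM had several separate peaks there, the longest of which was 31686 bp. The length of a single peak did not carry over to the bases covered, which were more in CD15M_CM over HOXA3 (49878 against 27869 bp), HOXA4 (8165 against 3369 bp) and HOXA5 (9033 against 5695 bp). HOXC8 was at 49.1 in GD15M_LM and 3.35 in CD15M_CM, while HOXA4, HOXA5 and HOXB8 fell to 63.8, 72.6 and 71.5 from 92.6, 94.4 and 96.3.

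In the signalling group for Wnt, hedgehog and retinoic acid, 13 of 19 (68.4%) ranked higher in CD15M_CM, near the 60.3% of all genes. TBX18 and TBX3, factors of mesenchyme, rose to 85.0 and 96.5 in GD15M_LM from 59.7 and 75.2. GLI2, a hedgehog effector, fell to 69.3 from 97.3. Steroid and prostaglandin genes had no call, with PTGS2, the inducible cyclooxygenase, at 79.7 and 63.9 and ESR1, the estrogen receptor alpha, at 59.4 and 72.7. Over the whole gene ESR1 was at 92.2 in GD15M_LM, 84.7 in CD15M_CM and 96.4 in GD15M_CM, so the order of the pair turned.

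Housekeeping and proliferation genes served as controls. Of 15 housekeeping genes 5 ranked higher in GD15M_LM, and ACTB and TBP fell to 66.8 and 69.5 from 95.5 and 96.6, so a difference of 20 points also occurred at genes that every cell uses. Proliferation genes were higher in CD15M_CM at 11 of 13, and at 8 of 13 with equal numbers of peaks, and none passed 20 points.

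The 10 protein-coding genes with peaks in both lists and the largest difference towards GD15M_LM were led by SDCBP2. SDCBP2 (chr17:33967075-33985975), a syntenin, was at 94.9 in GD15M_LM, 16.6 in CD15M_CM and 8.27 in GD15M_CM, and over the whole gene the circular lists reached 74.8 and 76.7. PRAP1 was at 66.3, 10.7 and 0 by gene ends. Its GD15M_LM peak of 3934 bp lay outside the gene and mostly beyond the window. The whole-gene window has the same outer edge, so its equal values are no separate check, and circular peaks farther out were not looked for. RUNX1, a factor of blood and mesenchyme, was at 62.2, 6.85 and 59.2 by gene ends, but at 69.6, 82.3 and 93.6 over the whole gene, where the order turned. CD80, a costimulatory ligand, was at 56.3, 1.49 and 55.3. CXCL10, C4H8orf46, FAM50B, TCEAL7 and 2 uncharacterised genes made up the rest. The highest-ranked peaks of C4H8orf46 lay at opposite gene ends in the pair, and that of GD15M_LM overlapped no CD15M_CM peak. Over the whole gene FAM50B was at 60.6 in GD15M_LM, 49.7 in CD15M_CM and 29.0 in GD15M_CM. Of the 10 leading genes with a peak in GD15M_LM only, NPPB, the natriuretic peptide B, had a percentile of 56.8 against 44.7 in GD15M_CM, and MGAM2, KCTD14, C14H10orf128, ART4, DEFB123, MEPE, F2, 1 further gene and 1 gene on Y were the others, with DEFB123, MEPE and F2 overlapping a CD15M_CM peak beyond the window. Over the whole gene MGAM2 had a CD15M_CM peak too, with percentiles of 72.2 and 60.8.

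Genes at which both GD15M_LM and CD15M_CM lay farthest above GD15M_CM were AP4S1, TMEM130, NWD2, SPATA22 and SP3. Of these, SP3 also differed by 20.8 points within the pair. Over the whole gene AP4S1 was at 94.3, 88.1 and 88.8 in GD15M_LM, CD15M_CM and GD15M_CM, so that CD15M_CM no longer lay above GD15M_CM. TMEM130 was at 99.0 and 87.0 in the pair. It had no GD15M_CM peak within the window, by gene ends or over the whole gene. At TMEM130, NWD2 and SPATA22 the peaks of the pair lay outside the gene and mostly beyond the window. The whole-gene window has the same outer edge, so it cannot show a GD15M_CM peak farther out. SP3, a zinc finger factor, was at 97.7, 77.0 and 0 by gene ends and at 98.9 in GD15M_CM over the whole gene. FSD2, KCNJ10, ERICH4, SUN3 and RNF212B lay farthest below GD15M_CM in both. FSD2 was at 98.2 in GD15M_CM and had no peak in the pair within the window. At FSD2, ERICH4 and SUN3 the GD15M_CM peak lay outside the gene and mostly beyond the window, where peaks of the pair were not looked for. Over the whole gene RNF212B was at 48.2 in CD15M_CM and 65.0 in GD15M_CM.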

How the data were processed

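The authors mapped CUT&Tag reads to Sscrofa11.1 with BWA 0.7.17-r1188, filtered them with SAMtools 1.9 and Picard 2.8.3 for mapping quality and duplicates, pooled both replicates of a group and called peaks against IgG with MACS2 2.2.6 (versions from the submitters' processing notes). The deposited lists give for each peak the fold enrichment, a ratio of the mark over IgG, together with −log10 p and −log10 q as the authors' peak caller wrote them. The names of these last columns were unreadable in the lists and were taken from their order and values. The −log10 q column was not used, and −log10 p served for the strict threshold and an alternative ranking. Depth was not taken from the lists, and Wilson intervals (95%) cover counting error only.

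Peaks were compared by overlap of at least 1 bp, and genes by the percentile of the highest fold enrichment within 3 kb of either end of the 28210 RefSeq models on named chromosomes, with Python 3.11.15, pandas 2.3.3, NumPy 2.4.6, SciPy 1.17.1 and Matplotlib 3.10.9. With 1 pooled list per group no test was made. The steps were tested on simulated data. The comparison and gene groups were chosen with earlier results of these data known. Named genes were the members of the groups, the 10 protein-coding genes with the largest difference each way, the 10 highest with a peak in 1 list, and the 5 at which both lists lay farthest above, and the 5 farthest below, GD15M_CM. Alternatives were a strict threshold, joined peaks, equal numbers of peaks, 50% overlap, ranking by −log10 p, a 1 kb window, protein-coding genes and, chosen after seeing the data, whole gene models, percentiles among genes and peak lengths. Values of a few group members are not reported here.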

Additional observations from a re-analysis of the deposited data

How the results depend on the processing

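No paired analysis was possible because replicates were pooled before peak calling and the columns carry no replicate number, and for the same reason no gilt could be left out. A window at the start of genes only was not run, because strand was not given. The overlap shares of GD15M_LM and CD15M_CM peaks were 89.7% and 90.7% with strict peaks, 83.5% and 77.6% with joined peaks, 75.9% and 75.3% with equal numbers and 71.9% and 62.8% when 50% of a peak had to be covered. Covered length shared by GD15M_LM and CD15M_CM, GD15M_LM and GD15M_CM, and CD15M_CM and GD15M_CM was 77.5%, 73.6% and 76.8% with strict peaks, 72.4%, 69.8% and 72.1% with joined peaks, and 72.6%, 69.1% and 72.2% with equal numbers. Spearman's rho for these pairs was 0.868, 0.821 and 0.864 by −log10 p, 0.720, 0.691 and 0.722 with 1 kb, 0.712, 0.680 and 0.714 for protein-coding genes, 0.733, 0.700 and 0.734 with equal numbers, 0.675, 0.635 and 0.675 with strict peaks, and 0.742, 0.711 and 0.745 over whole genes. Genes changed towards GD15M_LM and CD15M_CM numbered 396 and 907 by −log10 p, 2405 and 2459 with strict peaks and 2548 and 2741 with percentiles among genes, where ranks spread over fewer items, and 1048 and 1252 with equal numbers. Protein-coding genes with a peak in 1 list numbered 223 and 392. Of 88 named genes past 20 points, 57 to 80 stayed past it under the settings that kept all 88. Over whole genes 3 turned direction: the second B2M gene model (−5.45), CD8A (−0.57) and RUNX1 (−12.75). The causes were not tested. Read depth was not used here, and pooled lists give no spread between gilts.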
